A study of Mus musculus with 21 samples.

Results

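The genes described here are 37 mouse genes that shorten the poly(A) tail of mRNA, remove its cap, degrade the uncapped RNA or carry out nonsense-mediated decay (NMD). They were chosen by gene symbol from the known subunits of these machineries, and all 37 were found among the 22512 genes of the count table. By role they comprised 9 subunits of CCR4-NOT, 3 genes of PAN2-PAN3 and PARN, 4 genes of the TOB and BTG family, 2 cytoplasmic poly(A)-binding proteins, 10 genes of decapping and decay from the 5′ end, and 9 NMD genes. Each of the 37 passed the filter on low counts in every fit, and the lowest count of any of them in any library was 146 reads, for Dcp1b.

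CCR4-NOT is the main cytoplasmic deadenylase, built on the scaffold Cnot1 with the nucleases Cnot6 or Cnot6l and Cnot7 or Cnot8. Argonaute proteins loaded with microRNAs bind GW182 proteins, called Tnrc6 in mouse, which recruit CCR4-NOT and PAN2-PAN3 to the target, after which Dcp2 and its activators remove the cap and Xrn1 degrades the body. TRIM71 is an RNA-binding protein of stem cells and early embryos that silences the mRNAs it binds, and NMD removes mRNAs whose translation ends early, through Upf1 and the Smg proteins.

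The 21 libraries were total RNA of mouse embryonic stem cells of the 129S6/SvEvTac background in 7 groups of 3. Every group carried yGlob [GFP_5xT71BS] and a stable FLAG-Cas9::T2A::Blasticidin insertion, so these are shared by the controls. In Experiment 1 the parental cells (W) were compared with Trim71-/- cells (Trim71KO) and Ago2-/- cells (Ago2KO). In Experiment 2 parental cells received pCIP FH-T6B_WT::mCherry (T6B_WT) or pCIP FH-T6B_MUT::mCherry (T6B_MUT), and Trim71-/- and Ago2-/- cells received an empty plasmid (Trim71KO_empty and Ago2KO_empty). T6B is a peptide from TNRC6B known to occupy Argonaute and block its contact with GW182 proteins, and its mutant form served here as the control of all 3 other groups of Experiment 2. Plasmid and genotype therefore changed together in the comparisons of Trim71KO_empty and Ago2KO_empty with T6B_MUT, and their parts cannot be told apart. The labels do not give how many clones each knockout line represents, and the design text calls the 3 libraries of a group biological replicates without saying what separated them, so p-values measure the spread between these libraries.

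Library totals ran from 29.6 to 50.8 M counts in Experiment 1 and from 33.9 to 57.9 M in Experiment 2. Ago2 was at 134 to 153 CPM (counts scaled to a common library size by TMM) in W and 39.8 to 43.6 in Ago2KO. Trim71 was at 602 to 618 CPM in W and 412 to 459 in Trim71KO, so most of its transcript was still measured there. Ago2KO also lay below W, at 504 to 522 CPM of Trim71. In Experiment 2 Trim71 was at 482 to 503 CPM in T6B_MUT, 393 to 409 in Trim71KO_empty and 416.5 to 445 in T6B_WT. It was at 419 to 564 CPM in the libraries labelled Ago2KO_empty. A level below the control was therefore not particular to the Trim71-/- groups. In the libraries labelled Ago2KO_empty Ago2 stood at 87.4, 167 and 45.6 CPM against 112 to 143 in T6B_MUT, so replicate 2 went against its label, and every result on this group is given with that in view. All 8 stem cell markers were detected in every group, with a summed level of 3910 to 5266 CPM over all libraries. Both Trim71-/- groups stood above their control. They summed to 4889 to 5266 CPM in Trim71KO against 4144 to 4378 in W, and to 4849 to 5072 in Trim71KO_empty against 4207 to 4359 in T6B_MUT. The 8 markers of two-cell-like cells summed to 103 to 107 CPM in T6B_WT and 76.4 to 88.7 in the libraries labelled Ago2KO_empty, against 21.4 to 24.3 in T6B_MUT. In Experiment 1 they summed to 15.6 to 17.7 CPM in W, 0.829 to 1.46 in Trim71KO and 3.23 to 4.09 in Ago2KO, while the 6 primitive endoderm markers summed to 35.1 to 37.3, 4.14 to 4.51 and 8.87 to 9.85 CPM. In Experiment 2 the latter were at 24.0 to 25.1 CPM in T6B_MUT, 20.0 to 23.7 in T6B_WT, 8.55 to 9.88 in Trim71KO_empty and 15.5 to 21.7 in the libraries labelled Ago2KO_empty. The 3 trophoblast markers in the table summed to 22.8 to 26.1 CPM in W, 16.1 to 18.1 in Trim71KO and 32.5 to 36.3 in Ago2KO. The 3 of fibroblast feeders summed to 7.15 to 7.68 in W and 10.5 to 11.6 in Trim71KO. In Experiment 2 the 4 neural markers summed to 22.4 to 23.9 CPM in T6B_MUT and 32.2 to 35.8 in T6B_WT. They were at 18.2 to 21.6 CPM in Trim71KO_empty and 23.8 to 24.4 in the libraries labelled Ago2KO_empty. No marker present in the table was at 0 in a whole group, and the part of such cells in the values below was not tested.

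Cells of this type rely on the microRNAs of the miR-290 and miR-302 clusters, and matches to their shared seed are shown here because both members called higher in Ago2KO carried one, which was seen after their values were known. Of the RefSeq mature sequences (GRCm38.p6), 5 shared the seed AAGUGCU (bases 2 to 8, in capitals), among them the following 3.
mmu-miR-291a-3p: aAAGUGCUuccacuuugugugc
mmu-miR-294-3p: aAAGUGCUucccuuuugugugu
mmu-miR-302d-3p: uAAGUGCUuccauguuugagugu
The complementary letters AGCACTT were searched on the sense strand of 1 annotated 3′ UTR per gene (GENCODE M21, GRCm38). They occurred in 7 of the 37 members (18.9%) and in 15.0% of the 14325 coding genes tested in Experiment 1. The members were Cnot6, Cnot6l, Pan3, Tob2, Btg1, Dcp1b and Dcp2, and their median UTR was 2750 bases against 1020 in the other 30 members, so UTR length moved with the match. The matches in capitals below, with 14 bases before and 7 after each, belong to Cnot6l and Btg1, to Cnot6 as the paralog of Cnot6l, and to Dcp1b.
Cnot6l: ttgcacattatcaaAGCACTTaaatttg
Btg1: ggagacttttacctAGCACTTaaaatgt
Cnot6 (first match): caggagaggggaggAGCACTTactcatc
Cnot6 (other match): atttatttcatattAGCACTTtgaaacc
Dcp1b: ttggttcaatccctAGCACTTaaaaaaa
These windows lie in the 3′ UTR of Cnot6l at chr5:96076652-96076679 (minus strand), of Btg1 at chr10:96619131-96619158 (plus strand), of Cnot6 at chr11:49673038-49673065 and chr11:49672187-49672214 (minus strand), and of Dcp1b at chr6:119221484-119221511 (plus strand). The windows of Pan3 (1 match), Tob2 (1 match) and Dcp2 (5 matches) are not printed. In Ago2KO the log2 difference from W was positive for every member printed. It was -0.06 for Pan3, -0.23 for Tob2 and 0.15 for Dcp2, none of them called. A match is a description of letters, and binding there was not measured.

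Measured per length as RPKM (the authors' values, reads scaled to gene length and library size), the members ranged in W from 0.883 to 74.5. The poly(A)-binding protein genes were highest, with Pabpc1 at 74.5 ± 2.15 and Pabpc4 at 63.4 ± 4.08 RPKM (SD, n = 3), followed by the decapping enzyme Dcp2 at 35.2 ± 2.59 and the NMD helicase Upf1 at 33.6 ± 2.33, which did not separate beyond their SD. The lowest members were Tob2 at 1.83 ± 0.084, Cnot6l at 0.944 ± 0.0551 and Dcp1b at 0.883 ± 0.0854 RPKM. Within paralog pairs 1 copy usually dominated: Dcp1a exceeded Dcp1b 10.9-fold in W and Cnot6 exceeded Cnot6l 10.3-fold, whereas the helper pairs Lsm14a with Lsm14b (0.885) and Upf3b with Upf3a (1.13) had ratios near 1.

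**Figure D1:**
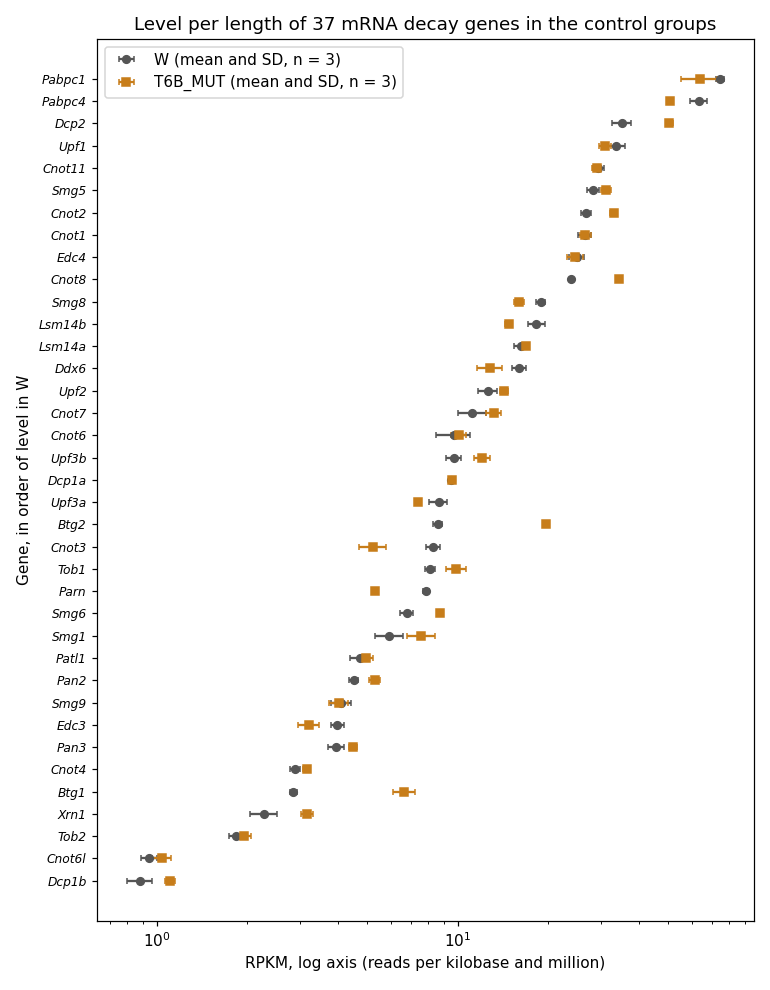
RPKM (log axis) of the 37 decay genes in the control groups W (circles) and T6B_MUT (squares), as mean and SD of 3 libraries, ordered by the level in W. Pabpc1 is at 74.5 RPKM and Dcp1b at 0.883 in W; Btg1 and Btg2 stand higher in T6B_MUT (6.66 and 19.7 RPKM) than in W (2.85 and 8.58).

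The controls of the 2 experiments differed most for the antiproliferative genes Btg1 and Btg2. Btg2 was at 8.58 ± 0.301 RPKM in W and 19.7 ± 0.459 in T6B_MUT, and Btg1 at 2.85 ± 0.0781 and 6.66 ± 0.556. Transfection and experiment changed together between these groups, so no test was made and fold changes are given only within an experiment.

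Across the 5 comparisons with a control, 20 of the 37 members were called at least once (adjusted p under 0.05, edgeR quasi-likelihood test, Benjamini-Hochberg over all genes tested) and 17 never were. No member reached a log2 difference of 1 in any of the 5. Between a group and its control the CPM did not overlap in 44.3% of all genes tested in Trim71KO and 34.2% in Ago2KO. The share was 45.5% in Trim71KO_empty, 39.3% in T6B_WT and 42.1% in the libraries labelled Ago2KO_empty. A lack of overlap, given below for single members, was therefore common among all genes. The called differences of 0.5 or more on the log2 scale belonged to Btg2, Tob1 and Btg1 of the TOB and BTG family and to Cnot6l, and that of Dcp1b fell just short in Trim71KO_empty. As in any bulk sample, fewer cells of a type and less RNA per cell cannot be told apart.

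After loss of Trim71, 11 members rose and 4 fell in Experiment 1 (40.5% of the members), where 32.6% of all genes tested were called, 16.9% higher and 15.6% lower. In Trim71KO_empty 6 rose and 2 fell (21.6%), against a background of 27.8% (14.4% higher, 13.4% lower). In Ago2KO 2 rose and 4 fell (16.2%), against 18.0% (10.2% higher, 7.78% lower). In T6B_WT 4 rose and 1 fell (13.5%), against 16.0% (9.29% higher, 6.69% lower). In the libraries labelled Ago2KO_empty 6 rose and 2 fell (21.6%), against 28.8% (16.4% higher, 12.4% lower). The share for the libraries labelled Ago2KO_empty became 29.7% against 23.7% without replicate 2 (7 higher, 4 lower) and 56.8% against 36.9% without replicate 3 (17 higher, 4 lower). That for T6B_WT became 37.8% against 27.1% when only the 2 groups were fitted (11 higher, 3 lower). In both comparisons the side of the share of all genes therefore depended on the libraries fitted. Of the genes at least as abundant as the lowest member, the joint fit called 36.2% in the libraries labelled Ago2KO_empty and 20.8% in T6B_WT. That share was not computed for the other fits, so a switch of side against such genes is not shown. In Trim71KO the share was above the background, but 40.9% of the genes at least as abundant as the lowest member were called there, so the count is not a result about decay genes. The Trim71KO count was 7 higher and 2 lower without W replicate 2, and 6 higher and 2 lower without W replicate 3 or without Trim71KO replicate 2.

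The median log2 difference of the members was 0.07 in Trim71KO, 0.07 in Trim71KO_empty, 0.07 in Ago2KO and 0.06 in T6B_WT, with all genes at 0.00, 0.00, 0.00 and 0.01. Among the libraries labelled Ago2KO_empty it was 0.17 (all genes 0.03).

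**Figure D2:**
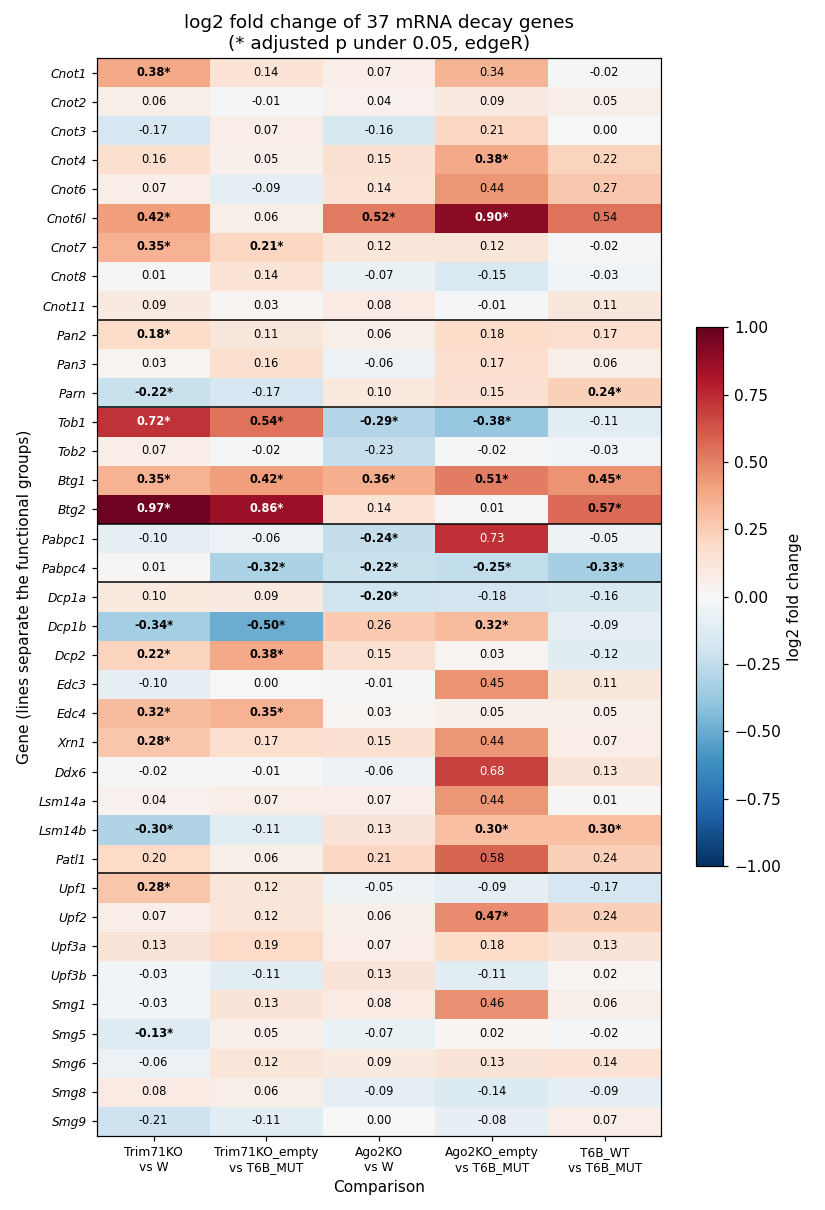
Colour and number give the log2 fold change of each of the 37 genes (vertical axis, by role) in the 5 comparisons with a control (horizontal axis); an asterisk marks adjusted p under 0.05 in edgeR. Btg1 is called higher in all 5, Btg2 in 3 and Tob1 in the 2 of Trim71 loss, while Pabpc4 is called lower in 4.

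Btg2 (chr1:134075170-134079120, minus strand, GRCm38) recruits CCR4-NOT to poly(A)-bound mRNA and restrains proliferation. It was at 23.1, 24.1 and 22.6 CPM in W, 46.0, 44.7 and 45.4 in Trim71KO and 27.2, 24.3 and 25.3 in Ago2KO. All Trim71KO libraries stood far above the other 6, whereas Ago2KO lay just above W without overlap. Loss of Trim71 raised it 1.95-fold (log2 difference 0.97 ± 0.06 SE, adjusted p = 1.96e-08), and the difference of 0.14 ± 0.06 in Ago2KO was not called (adjusted p = 0.119). In Experiment 2 it was at 54.8, 53.6 and 55.7 CPM in T6B_MUT, 79.6, 81.6 and 82.7 in T6B_WT and 110, 96.3 and 90.8 in Trim71KO_empty. Both groups cleared the control completely, with log2 differences of 0.57 ± 0.08 (adjusted p = 5.85e-05) for T6B_WT and 0.86 ± 0.08 (adjusted p = 2.08e-07) for Trim71KO_empty. The libraries labelled Ago2KO_empty, at 58.7, 48.6 and 57.9 CPM, overlapped the control (log2 difference 0.01 ± 0.08, adjusted p = 0.934).

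Btg2 was also the only member whose response to T6B differed from its response to Ago2 loss in Experiment 1 by the test of that difference (0.43 ± 0.10 in log2, adjusted p = 0.0156, 1 of 37 members against 3.16% of all genes). The call was lost without W replicate 2 (0.40, adjusted p = 0.0535) and without Ago2KO replicate 2 (0.39, adjusted p = 0.052). The T6B groups were transfected and belong to Experiment 2, whereas W and Ago2KO belong to Experiment 1 and received no such plasmid. Experiment and transfection therefore cannot be told apart from a difference between T6B and Ago2 loss.

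Btg1 (chr10:96617006-96622809, plus strand) is its paralog with the same role, and it also rose where Btg2 was not called. It was at 15.4, 14.5 and 14.6 CPM in W, 18.7, 17.8 and 20.2 in Trim71KO and 19.6, 18.5 and 19.0 in Ago2KO. Both knockouts stood above W with no overlap and overlapped each other. The log2 differences were 0.35 ± 0.07 (adjusted p = 9.82e-04) and 0.36 ± 0.07 (adjusted p = 0.00178), and between the knockouts -0.01 ± 0.07 (adjusted p = 0.946). In Experiment 2 Btg1 was at 35.3, 32.9 and 38.6 CPM in T6B_MUT, 46.4, 46.7 and 53.2 in T6B_WT, 53.4, 47.0 and 42.0 in Trim71KO_empty and 56.2, 49.4 and 46.5 in the libraries labelled Ago2KO_empty. Every library of the 3 groups exceeded every control library. The log2 differences were 0.45 ± 0.09 (adjusted p = 0.00254), 0.42 ± 0.09 (adjusted p = 0.00274) and 0.51 ± 0.09 (adjusted p = 6.40e-04), and Btg1 was the only member called in the same direction in all 5 comparisons. The 3 comparisons of Experiment 2 share the T6B_MUT libraries and the 2 of Experiment 1 share W, so they are not independent of each other.

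Tob1 (chr11:94211454-94215495, plus strand), an antiproliferative protein that bridges CCR4-NOT and the poly(A)-binding protein, moved in opposite directions in Trim71KO and Ago2KO. It was at 19.2, 17.9 and 17.8 CPM in W, 29.2, 29.2 and 31.9 in Trim71KO and 15.6, 15.9 and 13.6 in Ago2KO. The 3 groups did not overlap, with Trim71KO highest and Ago2KO lowest. Loss of Trim71 raised Tob1 1.64-fold (log2 difference 0.72 ± 0.07, adjusted p = 3.05e-06), and in Ago2KO it fell by 0.29 ± 0.07 on the log2 scale (adjusted p = 0.0138), a call lost without Ago2KO replicate 3 (-0.22, adjusted p = 0.0687). In Experiment 2 Tob1 was at 23.7, 21.1 and 24.1 CPM in T6B_MUT, 34.8, 32.5 and 32.8 in Trim71KO_empty and 17.6, 17.9 and 17.6 in the libraries labelled Ago2KO_empty. Here too the 3 groups were separate, in the same order. The log2 differences were 0.54 ± 0.07 (adjusted p = 1.74e-05) and -0.38 ± 0.07 (adjusted p = 9.13e-04), and without Ago2KO_empty replicate 2 the latter was -0.41. T6B_WT, at 21, 20.7 and 22.3 CPM, overlapped the control (-0.11 ± 0.07, adjusted p = 0.356). Tested directly, Tob1 was higher in Trim71KO than in Ago2KO by 1.01 ± 0.07 (adjusted p = 1.05e-07), and in Trim71KO_empty than in the libraries labelled Ago2KO_empty by 0.92 ± 0.07 (adjusted p = 2.42e-08).

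Tob2, at 12, 11.4 and 12.6 CPM in W and 11.6, 12.7 and 13.6 in Trim71KO, overlapped its control in all 5 comparisons and was called in none. Within each library the RPKM of Tob1 over Tob2 averaged 4.44 ± 0.273 (SD, n = 3) in W and 6.95 ± 0.352 in Trim71KO, and that of Btg2 over Btg1 went from 3.02 ± 0.156 to 4.62 ± 0.269. These ratios were also higher in Trim71KO_empty than in T6B_MUT, at 7.58 ± 0.894 against 5.09 ± 0.593 and at 4.02 ± 0.115 against 2.97 ± 0.177. In the libraries labelled Ago2KO_empty the ratio of Btg2 to Btg1 was 2.10 ± 0.264.

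**Figure D3:**
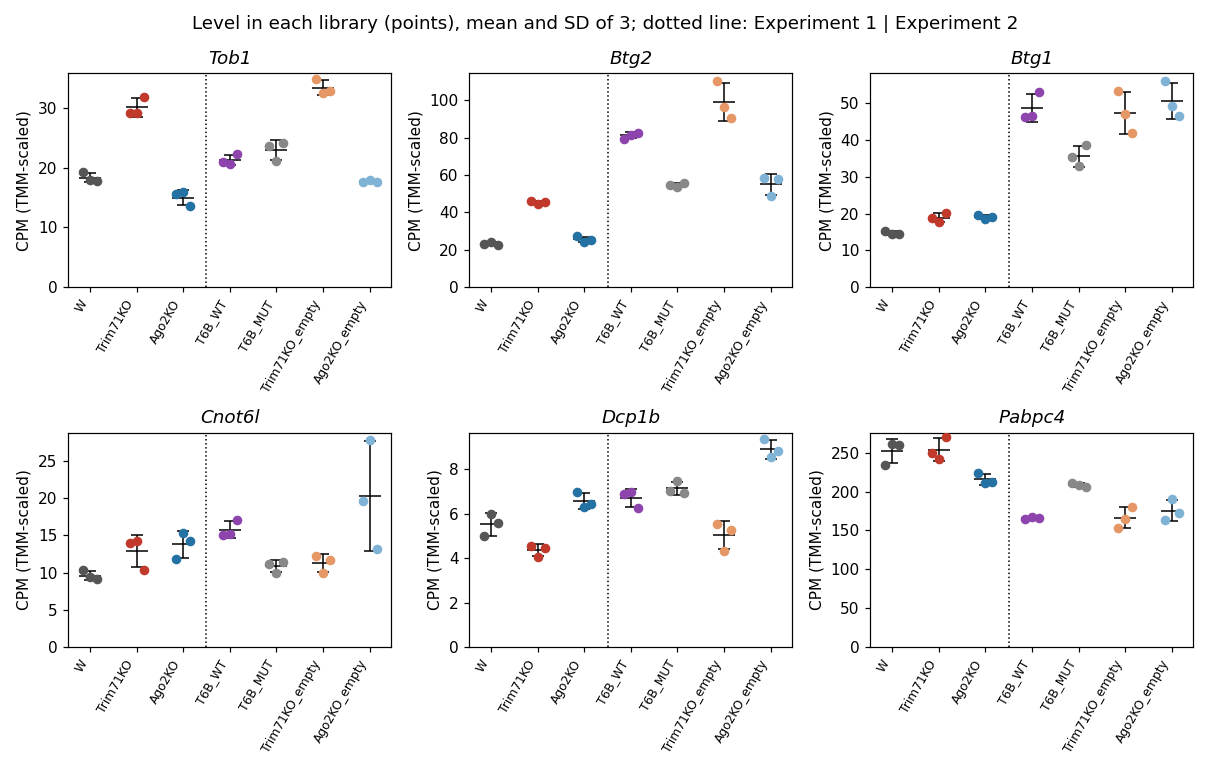
CPM (vertical axes, from 0) of 6 decay genes in every library of the 7 groups; points are libraries, bars the mean and SD of 3, and the dotted line separates the experiments. Tob1 is highest in Trim71KO (29.2 to 31.9 CPM) and Trim71KO_empty (32.5 to 34.8 CPM), and Cnot6l spreads from 13.2 to 27.9 CPM in the libraries labelled Ago2KO_empty.

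In CCR4-NOT, 3 of 9 subunits rose in Trim71KO, 1 each in Ago2KO and Trim71KO_empty, 2 in the libraries labelled Ago2KO_empty and none in T6B_WT, and none fell in any of the 5 (edgeR). Of all genes 16.9%, 10.2%, 14.4%, 16.4% and 9.29% were called higher in these comparisons, so 1 or 2 of 9 is close to the background. In T6B_WT 2 of the 9 were higher at an unadjusted p under 0.05, which 28.4% of all genes passed in either direction, and 1 was called higher by DESeq2. Cnot6l, a catalytic subunit (chr5:96070333-96164171, minus strand), was at 10.3, 9.40 and 9.15 CPM in W, 14, 14.2 and 10.4 in Trim71KO and 11.9, 15.4 and 14.2 in Ago2KO. Neither knockout overlapped W, although Trim71KO replicate 3 lay close to it. Loss of Ago2 raised Cnot6l by 0.52 ± 0.12 (adjusted p = 0.00839), and loss of Trim71 by 0.42 ± 0.12 (adjusted p = 0.0175). The call in Trim71KO was lost without any 1 of W replicates 2 and 3 and Trim71KO replicates 1 and 2 (log2 difference 0.34 to 0.40, adjusted p 0.0617 to 0.0822).

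In Experiment 2 Cnot6l was at 11.2, 9.97 and 11.4 CPM in T6B_MUT, 15.1, 15.2 and 17.1 in T6B_WT, 12.3, 9.99 and 11.7 in Trim71KO_empty and 19.6, 27.9 and 13.2 in the libraries labelled Ago2KO_empty. T6B_WT and the latter libraries exceeded the control without overlap, and the last group varied 2.12-fold within itself. Its difference of 0.90 ± 0.22 was called (adjusted p = 0.0138), was 0.58 without Ago2KO_empty replicate 2 and 1.10 without replicate 3, and was not called when only the 2 groups were fitted (adjusted p = 0.084). For T6B_WT the difference of 0.54 ± 0.22 was not called (adjusted p = 0.14), and the fit shares its estimate of the spread with the variable libraries labelled Ago2KO_empty.

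The paralog Cnot6 was at 73.1, 59.6 and 57.7 CPM in W and 62.6, 81.7 and 66.0 in Ago2KO, which overlapped. In the joint edgeR fits it was called in none of the 5 comparisons, though it was called higher in T6B_WT with only the 2 groups fitted and in the libraries labelled Ago2KO_empty by DESeq2. Its RPKM over that of Cnot6l was 10.3 ± 0.709 in W, 8.10 ± 0.361 in Trim71KO and 7.91 ± 0.563 in Ago2KO. Of the other nuclease pair, Cnot7 and Cnot8, only Cnot7 was called in the 5 comparisons in the joint edgeR fits. Cnot8 was called lower in the libraries labelled Ago2KO_empty without replicate 3. Set directly against these libraries, Cnot8 was higher in Trim71KO_empty (0.29 ± 0.07, adjusted p = 0.00294). Cnot7 rose by 0.35 ± 0.10 in Trim71KO (adjusted p = 0.0183) and 0.21 ± 0.07 in Trim71KO_empty (adjusted p = 0.0267). Both calls of Cnot7 were lost without 1 of several libraries. They were W replicates 2 and 3 and Trim71KO replicate 2 for the first (0.28 to 0.31). For the other they were T6B_MUT replicates 1 and 2 and Trim71KO_empty replicate 2 (0.16 to 0.20). Cnot4, an E3 ubiquitin ligase that associates with the complex, was called higher in the libraries labelled Ago2KO_empty (0.38 ± 0.09, adjusted p = 0.00472; 0.27 without replicate 2). Cnot2, Cnot3 and Cnot11, which are structural subunits, were called in none of the 5 in the joint edgeR fits (Cnot3 was called lower in Trim71KO with only the 2 groups fitted), with log2 differences from -0.17 to 0.21.

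Among the other deadenylases, Pan2, the nuclease of PAN2-PAN3, was called higher in Trim71KO (0.18 ± 0.06, adjusted p = 0.024), a call lost without W replicate 3 or Trim71KO replicates 1 or 2 (0.13 to 0.19). Its partner Pan3 was called in none of the 5 in the joint fits, and higher in the libraries labelled Ago2KO_empty without replicate 3. Parn, a poly(A)-specific ribonuclease, went opposite ways: it fell by 0.22 ± 0.05 on the log2 scale in Trim71KO (adjusted p = 0.00411) and rose by 0.24 ± 0.07 in T6B_WT (adjusted p = 0.023). Parn was at 41.1, 42.6 and 41.5 CPM in W and 34.2, 36.7 and 36.7 in Trim71KO, with no overlap. In Trim71KO_empty its difference of -0.17 ± 0.07 was not called (adjusted p = 0.0694). The call in T6B_WT was lost without T6B_WT replicates 2 or 3 or any 1 T6B_MUT library (0.17 to 0.23, adjusted p 0.071 to 0.142). Directly compared, Parn was lower in Trim71KO than in Ago2KO by 0.32 ± 0.05 on the log2 scale (-0.32, adjusted p = 1.88e-04), and the same difference stood in Experiment 2 (-0.32 ± 0.07, adjusted p = 0.00166).

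Of the poly(A)-binding proteins, which cover the tail and bind the translation machinery, Pabpc4 (chr4:123262351-123298925, plus strand) was called lower in 4 of the 5 comparisons. It was at 234, 261 and 260 CPM in W, 249, 242 and 270 in Trim71KO and 224, 211 and 212 in Ago2KO. Only Ago2KO lay wholly below W, by 0.22 ± 0.06 on the log2 scale (-0.22, adjusted p = 0.0118), and that call was lost without W replicate 2 or 3 (-0.20 in each). In Experiment 2 Pabpc4 was at 211, 208 and 205 CPM in T6B_MUT, 165, 167 and 166 in T6B_WT, 153, 165 and 180 in Trim71KO_empty and 163, 190 and 173 in the libraries labelled Ago2KO_empty. All 9 libraries were below the 3 of the control that these comparisons share. The log2 differences were -0.33 ± 0.07 (adjusted p = 0.00273), -0.32 ± 0.07 (adjusted p = 0.00154) and -0.25 ± 0.07 (adjusted p = 0.0121), the last not called without Ago2KO_empty replicate 1 (-0.22, adjusted p = 0.054) and -0.33 without replicate 2.

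Pabpc1, at 498, 477 and 468 CPM in W and 410, 427 and 381 in Ago2KO, fell by 0.24 ± 0.05 on the log2 scale without Ago2 (adjusted p = 0.00306), with no overlap. In the libraries labelled Ago2KO_empty it was at 531, 1265 and 327 CPM against 391, 494 and 390 in T6B_MUT. Replicate 2 was the highest and replicate 3 below the control, and the difference of 0.73 ± 0.42 (adjusted p = 0.225) was -0.01 without replicate 2 and 1.05 without replicate 3. Pabpc1 and Pabpc4 are close paralogs, and how reads that fit both were counted is not given in the sources used here.

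In decapping, 3 of 10 genes rose and 2 fell in Trim71KO, 2 rose and 1 fell in Trim71KO_empty, 1 fell in Ago2KO, 1 rose in T6B_WT and 2 rose in the libraries labelled Ago2KO_empty. Of all genes 16.9% rose and 15.6% fell in Trim71KO, 14.4% and 13.4% in Trim71KO_empty, 7.78% fell in Ago2KO, and 9.29% and 16.4% rose in the last groups. Dcp1b, a coactivator of Dcp2 (chr6:119175253-119221616, plus strand), was lower without Trim71 and higher in the libraries labelled Ago2KO_empty. It was at 4.98, 6.0 and 5.59 CPM in W, 4.57, 4.06 and 4.45 in Trim71KO and 7.0, 6.31 and 6.45 in Ago2KO, so the 3 groups did not overlap. The log2 difference from W was -0.34 ± 0.10 in Trim71KO (adjusted p = 0.0212) and 0.26 ± 0.10 in Ago2KO, which was not called (adjusted p = 0.0944). The first call was lost without W replicates 2 or 3 or Trim71KO replicate 2 (-0.33 to -0.28, adjusted p 0.0619 to 0.101). In Experiment 2 Dcp1b was at 7.01, 7.48 and 6.93 CPM in T6B_MUT, 5.56, 4.32 and 5.27 in Trim71KO_empty, 9.39, 8.54 and 8.81 in the libraries labelled Ago2KO_empty and 6.88, 6.99 and 6.24 in T6B_WT. Trim71KO_empty lay below the control and the libraries labelled Ago2KO_empty above it, each without overlap, while T6B_WT overlapped it. The log2 differences were -0.50 ± 0.11 (adjusted p = 0.00194), 0.32 ± 0.10 (adjusted p = 0.0254) and -0.09 ± 0.10 (adjusted p = 0.642). The call of 0.32 was lost without any 1 T6B_MUT library or Ago2KO_empty replicate 1 (0.26 to 0.34), and without replicate 2 the value was 0.33.

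Set directly against each other, Dcp1b was lower in Trim71KO than in Ago2KO by 0.60 ± 0.10 on the log2 scale (-0.60, adjusted p = 3.90e-04) and lower in Trim71KO_empty than in the libraries labelled Ago2KO_empty (-0.82 ± 0.11, adjusted p = 1.12e-05). Both calls held in every leave-one-out fit. Its paralog Dcp1a, at 78.8, 76.7 and 76.5 CPM in W, 79.9, 86.9 and 81.5 in Trim71KO and 69.0, 67.1 and 65.6 in Ago2KO, had the opposite order. It fell by 0.20 ± 0.05 on the log2 scale in Ago2KO (adjusted p = 0.01) and was higher in Trim71KO than in Ago2KO by 0.30 ± 0.05 (adjusted p = 2.44e-04), and by 0.27 ± 0.07 in Experiment 2 (adjusted p = 0.00569). The RPKM of Dcp1a over Dcp1b was 10.9 ± 1.2 in W, 14.7 ± 1.59 in Trim71KO and 7.87 ± 0.306 in Ago2KO, and 8.63 ± 0.464, 13.1 ± 1.95 and 6.11 ± 0.797 in T6B_MUT, Trim71KO_empty and the libraries labelled Ago2KO_empty. Both genes overlap a gene on the other strand, Cacna1d for Dcp1a and Cacna1c for Dcp1b. The library kit was stranded per the labels, but use of strand in counting is not given in the sources used here.

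Dcp2, the decapping nuclease itself, rose without Trim71 in both experiments. It was at 330, 288 and 290 CPM in W and 354, 371 and 332 in Trim71KO, and at 446, 435 and 455 in T6B_MUT and 604, 601 and 538 in Trim71KO_empty. In neither experiment did the groups overlap, with differences of 0.22 ± 0.06 (adjusted p = 0.0116) and 0.38 ± 0.07 (adjusted p = 7.12e-04). The first was not called without W replicates 2 or 3 or Trim71KO replicate 2 (0.18 to 0.19). Lsm14b, an RNA-binding protein of decapping complexes, fell by 0.30 ± 0.06 on the log2 scale in Trim71KO (adjusted p = 9.71e-04). In Trim71KO_empty its difference of -0.11 ± 0.06 was not called (adjusted p = 0.21). Lsm14b rose by 0.30 ± 0.06 in T6B_WT (adjusted p = 0.00201) and in the libraries labelled Ago2KO_empty (adjusted p = 0.00161, also 0.30 without replicate 2). The exonuclease Xrn1 was called higher in Trim71KO (0.28 ± 0.09, adjusted p = 0.0308; 0.27 and not called with only the 2 groups fitted), though its groups overlapped and the call was lost without any 1 of 4 libraries (W replicates 2 and 3, Trim71KO replicates 1 and 2; 0.22 to 0.25). The helicase Ddx6, the enhancer Edc3, Lsm14a and the scaffold Patl1 were called in none of the 5 comparisons in the joint edgeR fits. Lsm14a was called higher by DESeq2 in the libraries labelled Ago2KO_empty, and Patl1 higher with only the 2 groups fitted in T6B_WT and with the replicate block in Trim71KO and Ago2KO. All 4 were called higher in the libraries labelled Ago2KO_empty without replicate 3.

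Upf1, the central NMD helicase, rose in Trim71KO (0.28 ± 0.07, adjusted p = 0.00949) and Smg5, an adaptor that brings decay enzymes to Upf1, fell by 0.13 ± 0.05 on the log2 scale (adjusted p = 0.0384), a call lost in 5 leave-one-out fits (-0.15 to -0.11; all but that without W replicate 1) and with the replicate block (adjusted p = 0.0557). Upf2 was called higher in the libraries labelled Ago2KO_empty (0.47 ± 0.12, adjusted p = 0.013; 0.29 without replicate 2, where the call remained). Upf3a, Upf3b, the kinase Smg1, the endonuclease Smg6 and the kinase regulators Smg8 and Smg9 were called in none of the 5 comparisons in the joint edgeR fits. Smg1 was called higher by DESeq2 in the libraries labelled Ago2KO_empty, and Smg9 lower in Trim71KO with only the 2 groups fitted. In Ago2KO, Trim71KO_empty and T6B_WT no NMD gene was called, where 18.0%, 27.8% and 16.0% of all genes were. The log2 differences of the NMD genes there ran from -0.17 to 0.24. With only the 2 groups fitted, Upf2 and Smg6 were called higher and Upf1 lower in T6B_WT, and Upf3a higher in Trim71KO_empty. At an unadjusted p under 0.05 (edgeR) the counts were 0 in Ago2KO, 1 higher in Trim71KO_empty, and 1 higher with 1 lower in T6B_WT. DESeq2 called 0 in each. Of all genes 30.1% had an unadjusted p under 0.05 in Ago2KO, 38.6% in Trim71KO_empty and 28.4% in T6B_WT.

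Chromosome 8 as a whole was higher without Trim71, and 5 members lie on it: Cnot1, Cnot7, Edc4, Upf1 and Upf3a. The median log2 difference of its 1060 tested genes was 0.19 in Trim71KO, where 39.3% of them were called higher against 15.8% of genes elsewhere, and 0.09 in Trim71KO_empty (1053 genes, 23.3% against 14%). It was 0.00 in Ago2KO and -0.02 in T6B_WT. In Trim71KO 4 of the 5 members rose and none fell, and of the 32 on other chromosomes 7 rose and 4 fell. In Trim71KO_empty 2 of the 5 rose, and 4 of the 32 rose and 2 fell. The part of the chromosome in these calls was not tested.

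**Figure D4:**
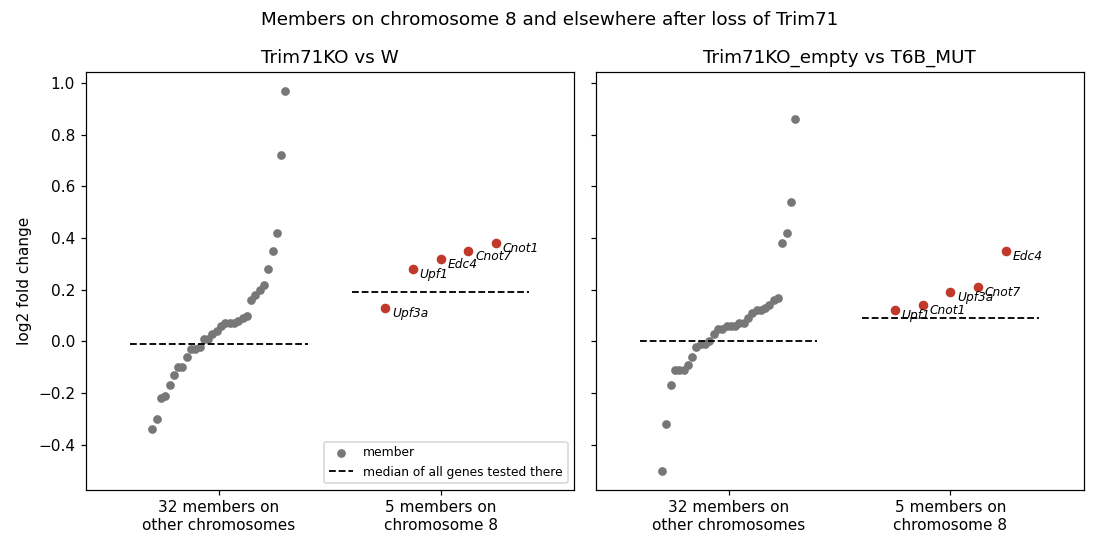
The log2 fold change (vertical axis) of the 32 members on other chromosomes and the 5 on chromosome 8 after loss of Trim71, in Experiment 1 (left) and Experiment 2 (right); dashed lines mark the median of all genes tested on the same chromosomes. Chromosome 8 members run from 0.13 to 0.38 on the left, around a chromosome median of 0.19, and from 0.12 to 0.35 on the right, all above the chromosome median of 0.09.

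Cnot1, the CCR4-NOT scaffold, was at 479, 436 and 435 CPM in W and 589, 631 and 535 in Trim71KO, without overlap. Its difference of 0.38 ± 0.06 (adjusted p = 3.83e-04) exceeded the chromosome median by 0.18. In Trim71KO_empty the difference of 0.14 ± 0.15 was not called (adjusted p = 0.533). Cnot1 was at 515, 517 and 503 CPM there and 447, 487 and 456 in T6B_MUT, without overlap. That fit shares its estimate of the spread with the libraries labelled Ago2KO_empty, where Cnot1 was at 565, 762 and 437 CPM. Edc4, a scaffold that joins Dcp2 and its activators, was at 127, 139 and 140 CPM in W and 163, 170 and 172 in Trim71KO, and at 138, 145 and 128 in T6B_MUT and 184, 169 and 172 in Trim71KO_empty. The knockout libraries stood above the control in both experiments (0.32 ± 0.06, adjusted p = 6.52e-04, and 0.35 ± 0.07, adjusted p = 4.83e-04). Upf1 and Cnot7 exceeded the chromosome median in Trim71KO by 0.08 and 0.15, and Upf3a, not called, lay 0.06 below it (-0.06). By the same subtraction Btg2 (chromosome 1) stood at 0.93, Tob1 (chromosome 11) at 0.75 and Cnot6l (chromosome 5) at 0.45.

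Directly compared, 10 members were higher and 4 lower in Trim71KO than in Ago2KO (37.8% of members, against 34.2% of all genes, with 17.1% in each direction). In Experiment 2, 8 were higher and 6 lower in Trim71KO_empty than in the libraries labelled Ago2KO_empty (37.8%, against 31.6%, with 14.7% higher and 16.9% lower). Of the genes at least as abundant as the lowest member, 43.1% were called in the first comparison and 38.7% in the other. Neither count is therefore a result about decay genes. Without Ago2KO_empty replicate 3 the count lower was 15. Calls that held in every leave-one-out fit in Experiment 1 were Cnot1, Tob1, Btg2, Pabpc4, Dcp1a, Edc4 and Upf1 higher and Parn, Dcp1b and Lsm14b lower. In Experiment 2 they were Cnot8, Tob1, Btg2, Dcp1a, Dcp2, Edc4 and Smg8 higher and Parn, Dcp1b and Lsm14b lower. For Lsm14b the differences were -0.43 ± 0.06 (adjusted p = 3.52e-05) and -0.41 ± 0.06 (adjusted p = 5.74e-05).

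The response to Trim71 loss differed between the experiments for 1 member of 37 (background 10.1%), Pabpc4 (-0.33 ± 0.09, adjusted p = 0.0198). Its difference was 0.01 ± 0.06 in Trim71KO and -0.32 ± 0.07 in Trim71KO_empty, and the call was lost in 6 leave-one-out fits, among them that without W replicate 1 (-0.25, adjusted p = 0.105). For Ago2 loss no member differed (0 of 37, background 2.13%, edgeR), with 2 at an unadjusted p under 0.05 (Pabpc1 and Upf2, against 15.1% of all genes) and 0 by DESeq2. The widest difference was that of Pabpc1 (0.96 ± 0.44, adjusted p = 0.321), and without Ago2KO_empty replicate 3 the count of members with a larger value in Experiment 2 was 8. A count of 0 does not show that the responses were alike.

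The 3 libraries labelled Ago2KO_empty differed from each other more than those of any other group. In 12 of the 37 members the highest library exceeded the lowest over 1.5-fold, against 0 of 37 in each of the other 6 groups, and over all genes at 1 CPM or more the share was 11.1% there against 1.37% to 5.71% elsewhere. The 12 were Cnot1, Cnot3, Cnot6, Cnot6l, Pabpc1, Edc3, Xrn1, Ddx6, Lsm14a, Patl1, Upf2 and Smg1, and all 12 were highest in replicate 2 and lowest in replicate 3. That order was also the order of Ago2 itself. Over all members it held for 20 (54.1%) and over the 15721 genes at 1 CPM or more for 24.3%. The 37 genes took 0.434%, 0.536% and 0.359% of the counts of replicates 1, 2 and 3, against 0.341% to 0.424% in the other 18 libraries.

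Ddx6, the helicase that links CCR4-NOT to decapping, had the widest spread after Pabpc1, at 147, 263 and 89.9 CPM against 97.7, 116 and 98.0 in T6B_MUT. Its difference was 0.68 ± 0.32 (adjusted p = 0.154), 0.17 without replicate 2 and 0.95 without replicate 3. Without replicate 2, 7 members were higher and 4 lower (29.7%, against 23.7% of all genes), with a median of 0.09. Without replicate 3, 17 were higher and 4 lower (56.8%, against 36.9%), with a median of 0.16. Tob1, Btg1, Cnot4, Cnot6l, Dcp1b, Lsm14b, Upf2 and Pabpc4 were called in both of these fits as in the full one. The part of residual Ago2 in these values was not tested.

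**Figure D5:**
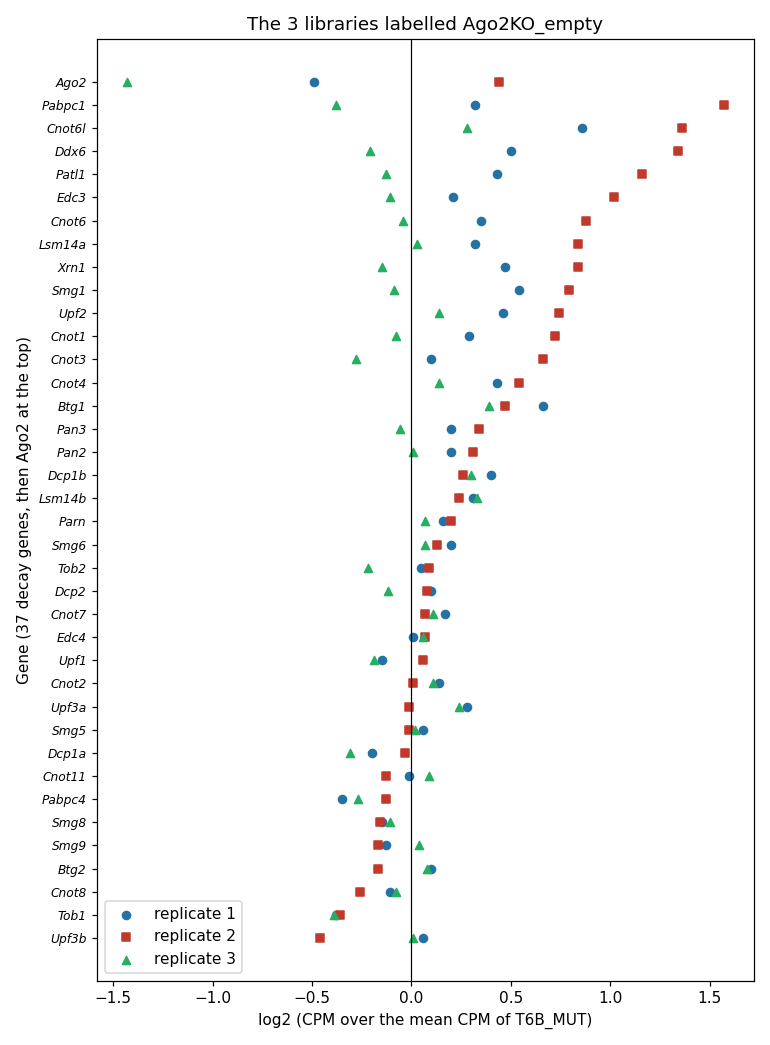
For each of the 37 decay genes and Ago2 (top row), the log2 ratio of its CPM in the 3 libraries labelled Ago2KO_empty to the mean CPM of T6B_MUT (horizontal axis, 0 is equal). Pabpc1 runs from -0.38 in replicate 3 to 1.57 in replicate 2 and Ago2 from -1.43 to 0.44, while Tob1 stays between -0.39 and -0.36 in all 3.

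When T6B_WT and T6B_MUT were fitted without the other groups, 11 members were higher and 3 lower (37.8%, against 27.1% of all genes). The added calls were Cnot4, Cnot6, Cnot6l, Pan2, Patl1, Upf2 and Smg6 higher and Dcp1a and Upf1 lower, and the 5 calls of the joint fit stood.

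The matches to the shared seed were then set beside the differences. In Ago2KO the 7 members with a match had a median log2 difference of 0.15 and the other 30 of 0.06, with 0.08 and 0.00 for all coding genes with and without one. In T6B_WT the medians were 0.06 and 0.05 for members (all coding genes 0.08 and 0.01), and in the libraries labelled Ago2KO_empty 0.32 and 0.14 (0.16 and 0.02). After Trim71 loss the medians of coding genes with and without a match were 0.03 and -0.01 in Trim71KO, and 0.05 and 0.00 in Trim71KO_empty. For members they were 0.07 and 0.06, and 0.06 and 0.07. A gap among coding genes was not particular to Ago2 or T6B. Coding genes in the Ago2KO fit had a median UTR of 2383 bases with a match and 773 without. A library labelled Ago2KO_empty went against its label. The matches are shown because members called higher in Ago2KO carried them. These are descriptions with no test.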

How the data were processed

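Total RNA of 21 libraries was sequenced after a stranded library kit, per the labels' protocols. The authors deposited 1 table with raw read counts per gene, RPKM and gene length (used to read RPKM) for each library, per the file headers. The submitters' processing notes name bcl2fastq 2.17, STAR 2.7.3a and the builds GRCm38 and mm10, and the annotation, the treatment of reads with several matches and the use of strand in counting are not given in the sources used here. Every sample column was used.

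Counts were tested as deposited in edgeR 4.0.16 (R 4.3.3; quasi-likelihood F test, robust, TMM, filterByExpr with a minimum count of 10) in 1 fit per experiment, and differences between experiments in 1 fit of all 21 libraries. P-values were Benjamini-Hochberg adjusted over all genes tested (21210, 21505 and 22258) and called under 0.05. SE is the absolute log2 difference over the root of F. CPM are TMM-scaled counts. Library totals ran from 29.6 to 57.9 M counts, and the lowest count of a member was 146 reads. The script was tested on simulated data. The members and lists were chosen with earlier results of these data known. Values by library are printed for members with an absolute log2 difference of at least 0.5 and a call in a comparison with a control, and for their paralogs. Others named by library were chosen after their values were seen. Coordinates and UTRs come from GENCODE M21 (22480 of 22512 gene identifiers found), miRNA sequences from RefSeq. Of the members, 18 overlap a gene on the other strand. Alternatives were RLE scaling, DESeq2 1.42.0, other filters (none, or CPM above 1 in 3 libraries), a replicate block, only the 2 groups compared, and each library left out.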

Additional observations from a re-analysis of the deposited data

Results flagged for a closer look

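Pabpc4 is shown here because its response to loss of Trim71 differed between the experiments by the test of the difference itself, -0.33 ± 0.09 on the log2 scale (adjusted p = 0.0198, edgeR). Its CPM overlapped W in Trim71KO and lay below T6B_MUT in 3 of 3 libraries of Trim71KO_empty. The call was lost without W replicate 1 (-0.25, adjusted p = 0.105), Trim71KO replicate 3 (-0.29), T6B_MUT replicate 1 (-0.30) or 2 (-0.31), or Trim71KO_empty replicate 1 (-0.28) or 2 (-0.30). The control of Experiment 2 carried the T6B_MUT plasmid and that of Experiment 1 carried none, so plasmid and experiment cannot be told apart here.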

How the results depend on the processing

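Of the member counts, RLE scaling, both other filters and the replicate block left all within 1.5 times. Fitting only the 2 groups gave 11 members higher and 3 lower for T6B_WT and 3 lower for Trim71KO_empty against the libraries labelled Ago2KO_empty; DESeq2 gave 11 higher for the latter against T6B_MUT and 1 higher for the difference in Trim71 loss between experiments. Leaving out 1 library gave 6 to 13 higher and 2 to 5 lower in Trim71KO, 5 to 17 and 1 to 4 in the libraries labelled Ago2KO_empty, 4 to 15 lower in Trim71KO_empty against these, 0 to 2 higher and 0 to 1 lower for the difference in Trim71 loss, 0 to 8 higher for that in Ago2 loss, and 0 to 1 higher for T6B against Ago2 loss. The values of 17, 15 and 8 are those without Ago2KO_empty replicate 3; the cause was not tested for any of these. No value past the threshold changed sign under any of these alternatives.

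The replicate numbers did not pair the libraries: same-numbered libraries correlated at -0.215 to 0.219 (Experiment 1) and -0.166 to 0.172 (Experiment 2) in their deviations from the group means. With the number as a block, 12 members rose and 3 fell in Trim71KO, and 4 rose and 1 fell in T6B_WT.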

Other observations

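Other genes of the same pathways, taken from lists drawn up with the members, were read as counts. Of 9 further CCR4-NOT and deadenylase genes none rose and 3 fell in Trim71KO, and of 18 exosome and SKI genes, which degrade RNA from the other end, 1 rose and 6 fell there, 5 fell in Ago2KO, 3 fell in T6B_WT, 2 rose and 7 fell in Trim71KO_empty and 7 fell in the libraries labelled Ago2KO_empty. Of all genes 15.6%, 7.78%, 6.69%, 13.4% and 12.4% fell in these comparisons, and 16.9% rose in Trim71KO and 14.4% in Trim71KO_empty. The median log2 differences of these 2 lists were -0.10 and -0.09 in Trim71KO, with all genes at 0.00. Of 14 further decapping genes 3 rose and 3 fell in Trim71KO and 1 rose and 6 fell in Trim71KO_empty, and of 11 further NMD and exon junction genes 4 rose and 3 fell in Trim71KO and 5 fell in Ago2KO. Of 5 poly(A) regulators 3 were in the table, of which 1 rose and 1 fell in Trim71KO. Magohb, a paralog of the exon junction protein Magoh, was at 3.20 ± 0.355 CPM in W, 1.57 ± 0.248 in Ago2KO and 4.54 ± 0.472 in Trim71KO (SD, n = 3), and differed between the knockouts by 1.54 ± 0.15 (SE, adjusted p = 1.73e-06, edgeR). In Experiment 2 it was at 3.40 ± 0.62 CPM in Trim71KO_empty and 1.16 ± 0.126 in T6B_MUT (1.54 ± 0.18, adjusted p = 4.50e-06). The libraries labelled Ago2KO_empty had 1.23 ± 0.102 CPM of Magohb, so the fall in Ago2KO was not seen there. Its response differed between the experiments for Ago2 loss (1.1 ± 0.25, adjusted p = 0.0166, edgeR) and for Trim71 loss (1.04 ± 0.22, adjusted p = 0.0031). Pnrc1, a decapping coactivator, was lower in Trim71KO than in Ago2KO, at 15.7 ± 1.27 against 34.1 ± 1.96 CPM (-1.12 ± 0.07, adjusted p = 3.84e-08), and in Trim71KO_empty than in the libraries labelled Ago2KO_empty (-0.79 ± 0.07, adjusted p = 7.95e-08). Nudt16, a decapping enzyme, was higher there (0.79 ± 0.17, adjusted p = 0.0016).

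Of 15 adaptors that bring deadenylases to mRNA, 4 rose and 2 fell in Ago2KO and 2 rose and 4 fell in Trim71KO. Of all genes 10.2% rose and 7.78% fell in Ago2KO, and 16.9% and 15.6% in Trim71KO. Those that fell in Trim71KO included Samd4 (-1.32 ± 0.18, adjusted p = 6.20e-05), which binds stem-loops, and Zfp36 (-0.78 ± 0.11, adjusted p = 5.30e-05), which binds AU-rich elements. Samd4 was low, at 1.01 ± 0.203 CPM in Trim71KO and 2.55 ± 0.32 in W. In Experiment 2 Samd4 was at 1.35 ± 0.251 CPM in Trim71KO_empty and 1.18 ± 0.273 in T6B_MUT. Its response to Trim71 loss differed between the experiments (1.5 ± 0.29, adjusted p = 9.88e-04, edgeR). Nanos1, a partner of Pumilio proteins, was lower in Trim71KO than in Ago2KO (-0.93 ± 0.10, adjusted p = 6.46e-06) and lower in Trim71KO_empty than in the libraries labelled Ago2KO_empty (-1.0 ± 0.10, adjusted p = 7.24e-07). Tnrc6a, a GW182 gene, rose in T6B_WT from 75.3 ± 5.14 to 129 ± 8.36 CPM (0.78 ± 0.14, adjusted p = 0.00297). Tnrc6b was at 230 ± 14.4 CPM in T6B_MUT and 75.7 ± 8.66 in Trim71KO_empty; the plasmids encode part of its protein, and reads from them were not separated here. Of 9 known NMD substrates, 1 rose and 3 fell in Trim71KO, and 3 rose and 2 fell in Trim71KO_empty. The shares of all genes were 16.9% higher and 15.6% lower in Trim71KO, and 14.4% and 13.4% in Trim71KO_empty. Gadd45a fell by 0.80 ± 0.09 on the log2 scale in Trim71KO (adjusted p = 7.59e-06). In Experiment 2 Gadd45a was at 23.2 ± 2.75 CPM in Trim71KO_empty and 24.0 ± 0.891 in T6B_MUT. Its response to Trim71 loss differed between the experiments (0.76 ± 0.13, adjusted p = 4.57e-04, edgeR). Ddit3 rose by 0.78 ± 0.11 in Trim71KO_empty (adjusted p = 8.98e-05).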
